A study of Homo sapiens with 6 samples.

Results

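The genes described here are 10 components of transforming growth factor beta (TGF-beta) and bone morphogenetic protein (BMP) signalling: the ligands TGFB1 and TGFB2, the receptors TGFBR1 and TGFBR2, the signal transducers SMAD2, SMAD3 and SMAD4, the inhibitory SMAD7, and the target genes ID1 and ID3. They were chosen by name and looked up by Ensembl gene identifier among the 13449 genes of the authors' deposited table. Of the 10, 9 were in the table, and TGFB2 was not among its genes. SK-MEL-28 human melanoma cells received by lipofection either a control siRNA (control) or an siRNA against the long noncoding RNA DANCR (siDANCR), and were collected 3 days after transfection. Each group had 3 libraries of poly(A) RNA, 6 in all, and the comparison asks which transcripts differ once DANCR is depleted. The cells are a single line. The methods speak of biological replicates without saying whether these were separate cultures or transfections, so the p-values measure the spread between these samples.

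TGF-beta is secreted in a latent form and has to be released before it can bind its receptors. The active ligand brings together type II and type I receptor kinases, the type I receptor then phosphorylates SMAD2 and SMAD3, and these enter the nucleus with SMAD4 to regulate transcription. BMPs use related receptors and signal through SMAD1, SMAD5 and SMAD9, with ID genes among their best known targets. SMAD7 is induced by the pathway and acts back on the receptors to dampen it. In melanocytes TGF-beta restrains growth, whereas melanoma cells often secrete TGF-beta and tolerate it.

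The table gives, for each gene, a mean normalised read count over all 6 libraries, the log2 fold change in siDANCR relative to control cells and its standard error (SE), and a p-value with its adjustment over all genes (DESeq2). It gives no value for a single library, so the group levels below are those implied by the mean and the fold change, and how many libraries moved the same way is not known. A gene is called when its adjusted p is at most 0.05, without a minimum fold change. The knockdown was visible in the targeted RNA: DANCR had an implied level of 705.8 normalised counts in control cells and 146.0 in siDANCR cells, a log2 fold change of −2.27 (SE 0.23, n = 3 and 3 libraries, adjusted p = 2.32e-18, DESeq2). The cells carried melanocyte lineage transcripts. Of 8 such markers 7 were in the table and TYRP1 was not, with mean counts from 2514 for TYR to 24524 for PMEL. None of the 7 was called, and 3 passed an unadjusted p of 0.05 (DESeq2): DCT at −0.53 (SE 0.18), PMEL at −0.32 (SE 0.12) and S100B at 0.41 (SE 0.20) on the log2 scale. Of the markers of other cell types CDH1, TUBB3 and MYH11 were in the table, at means between 85.8 and 470.5, and KRT5, KRT14, EPCAM, PTPRC, PDGFRB and COL1A1 were not. CDH1 was at 0.42 (SE 0.16), also without a call, and the part of these marker differences in the results below was not tested.

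None of the 9 measured components was called after DANCR depletion, against a background of 98 of the 13449 genes, or 0.729%. The background was 0.409% of genes called higher in siDANCR cells and 0.320% called lower. At an unadjusted p of at most 0.05 (DESeq2), 2 of the 9 components passed, TGFB1 with a lower estimate and TGFBR1 with a higher one, against 6.92% of all genes. Of the 9 estimates 5 were positive and 4 negative, with a median log2 fold change of 0.07, while the median over all genes was 0.00. TGFB1 and TGFBR1 stood at ranks 194 and 195 of 13449 by p, and SMAD2 came next of the components at rank 1753.

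Levels differed widely among the components, also per length of transcript. The mean count per kilobase of the canonical transcript was highest for ID3, at 2206, followed by ID1 at 772 and TGFBR1 at 676. SMAD3 stood at 251 per kilobase. TGFB1 at 146, TGFBR2 at 145, SMAD7 at 139 and SMAD4 at 117 per kilobase lay close together. SMAD2 had the lowest value, 45.7 per kilobase. Its canonical transcript is 34626 bases long, of which 32870 are 3′ untranslated region (UTR), so the value is too low for any shorter form. With no values per library, the spread of a level could not be computed, and neighbours in this order cannot be separated.

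**Figure D1:**
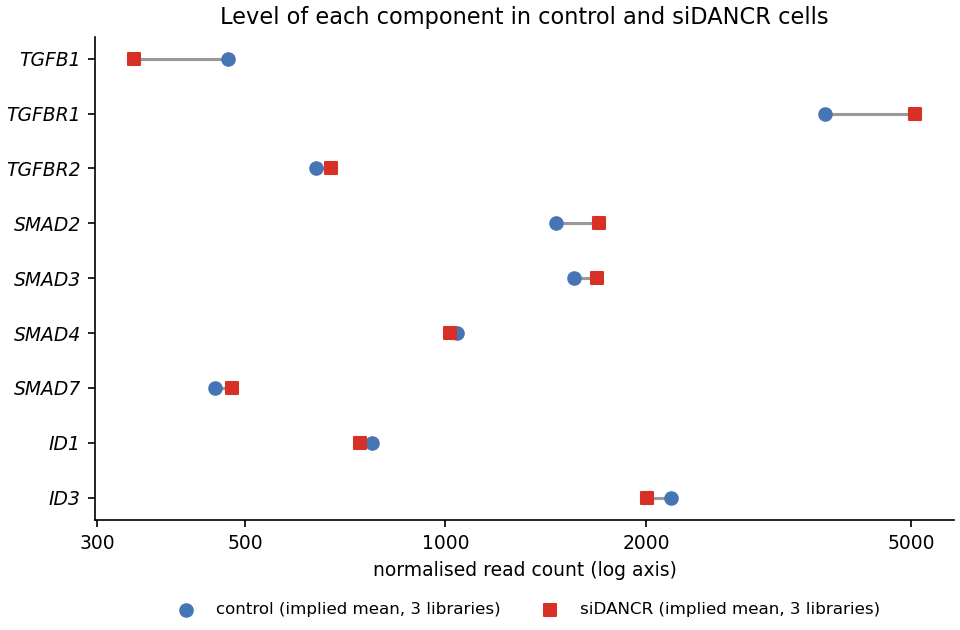
Implied mean normalised read count (log axis) of each of the 9 measured components in control cells (blue circles) and siDANCR cells (red squares), 3 libraries each. The widest gaps are those of TGFB1, from 472 in control to 341 in siDANCR cells, and TGFBR1, from 3715 to 5063, and the other 7 pairs lie close together; no error is shown because the table holds no values per library.

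TGFB1 encodes the founding ligand of the family. Its implied level was 472 normalised counts in control cells and 341 in siDANCR cells. That is a log2 fold change of −0.47 (SE 0.15, 95% interval −0.77 to −0.17), or 72.3% of control (58.6% to 89.1%). The unadjusted p of TGFB1 was 0.00237 and the adjusted p 0.165 (DESeq2), so the lower estimate was not called over all genes. In bulk RNA, fewer cells with the transcript and less of it per cell cannot be told apart. TGFB1 (ENSG00000105329) lies on the minus strand of chromosome 19 from 41807492 to 41859827 (GRCh37) and has 7 exons. Within these bounds on the opposite strand the table also holds HNRNPUL1, with a mean of 3928 normalised counts and a log2 fold change of −0.09 (SE 0.12), CCDC97 at 781 counts and −0.01 (SE 0.14), and TMEM91 at 26.4 counts. The libraries mark the strand, but the sources used here do not say whether the counting used it, so the reads of TGFB1 and of these neighbours cannot be told apart with certainty where their exons overlap. TGFB2 (ENSG00000092969, chromosome 1, 218518678 to 218617961, plus strand), a second ligand of the same receptors, has no value here.

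TGFBR1, the type I receptor kinase of TGF-beta, had the largest positive estimate of the components. Its implied level was 3715 normalised counts in control cells and 5063 in siDANCR cells. The log2 fold change of TGFBR1 was 0.45 (SE 0.15, 95% interval 0.16 to 0.74), or 136% of control (112% to 167%). With an unadjusted p of 0.00244 and an adjusted p of 0.168 (DESeq2) it was not called. TGFBR2, the type II receptor that binds the ligand first, had implied levels of 639 in control and 672 in siDANCR cells. Its log2 fold change was 0.07 (SE 0.17), or 105% of control (83.6% to 132%), within the error of the estimate. Both receptor genes lie on plus strands, TGFBR1 (ENSG00000106799) on chromosome 9 from 101866320 to 101916474 and TGFBR2 (ENSG00000163513) on chromosome 3 from 30648093 to 30735634 (GRCh37).

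The transducers of the signal did not differ beyond their error. SMAD2 (ENSG00000175387, chromosome 18, 45335328 to 45457517, minus strand) had implied levels of 1464 normalised counts in control and 1700 in siDANCR cells, a log2 fold change of 0.22 (SE 0.14, adjusted p = 0.886, DESeq2). SMAD3 (ENSG00000166949, chromosome 15, 67356101 to 67487511, plus strand), its close relative, had 1558 and 1686, a log2 fold change of 0.11 (SE 0.17). SMAD4 (ENSG00000141646, chromosome 18, 48554898 to 48611415, plus strand), the partner shared by the TGF-beta and BMP branches, had 1040 and 1017, a log2 fold change of −0.03 (SE 0.16). Relative to control these are 116% for SMAD2 (96.4% to 140.0%), 108% for SMAD3 (86.4% to 135%) and 97.8% for SMAD4 (78.9% to 121%). All 3 intervals include the control level. SMAD7 (ENSG00000101665, chromosome 18, 46446223 to 46477335, minus strand), the feedback inhibitor and itself a TGF-beta target, had 452 counts in control and 478 in siDANCR cells. Its log2 fold change was 0.08 (SE 0.15), or 106% of control (85.8% to 131%).

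ID1 and ID3 encode small helix-loop-helix proteins that lack a DNA-binding region and hold E proteins away from DNA. ID1 (ENSG00000125968, chromosome 20, 30193086 to 30194318, plus strand) had implied levels of 775 normalised counts in control and 744 in siDANCR cells, a log2 fold change of −0.06 (SE 0.19), or 95.9% of control (74.1% to 124%). ID3 (ENSG00000117318, chromosome 1, 23884417 to 23885992, minus strand) had 2183 and 2010, a log2 fold change of −0.12 (SE 0.15), or 92.1% of control (75.0% to 113%). Neither passed the test, and both intervals include the control level. Of the E protein genes, TCF3 was at 0.01 (SE 0.15) and TCF12 at −0.05 (SE 0.16) on the log2 scale, and TCF4 was not among the genes of the table.

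The precision sets what could be seen. With the SE of each gene, the smallest absolute log2 fold change that could have been called ran from 0.49 for SMAD2 to 0.68 for ID1. For TGFB1 it was 0.55 and for TGFBR1 0.53, and the estimates of both fell short of it. Their Wald statistics were −3.04 and 3.03, where an absolute value of 3.57 was the smallest called. The 95% intervals of the other 7 components lay between 74.1% and 140.0% of control, and smaller differences than these bounds were not resolved.

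**Figure D2:**
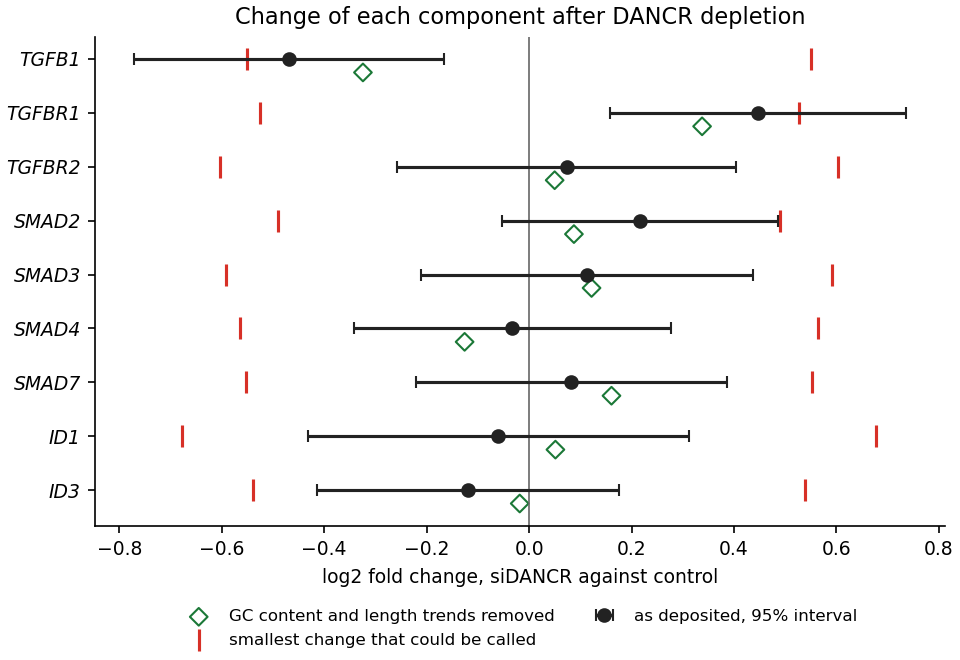
Log2 fold change of siDANCR against control (horizontal axis) for the 9 components, with 95% intervals from the authors' SE (black), the value after linear trends in transcript GC content and length were taken out (green diamonds) and the smallest change in either direction that could have been called (red ticks). The intervals of TGFB1 (−0.77 to −0.17) and TGFBR1 (0.16 to 0.74) leave out 0, and none of the 9 black points reaches a red tick.

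Fold changes across the whole table varied with the GC content of the transcript, and the components spread over most of that range. The median log2 fold change was 0.12 over the 2206 genes under 40% GC, of which 75.7% had a positive estimate. It was −0.14 over the 1886 genes at 60% GC or above, of which 22.7% had a positive estimate. TGFB1, at 63.6% GC, and TGFBR1, at 38.8%, sat at opposite ends of this range and on the side that the trend takes at each end. Once linear trends in GC content and in transcript length had been taken out, the log2 fold change of TGFB1 was −0.32 (unadjusted p = 0.0356, adjusted p = 0.841, Wald test with the DESeq2 SE). That of TGFBR1 was 0.34 (unadjusted p = 0.0220, adjusted p = 0.685, same test). Both still passed an unadjusted p of 0.05. SMAD2, at 40.3% GC, moved from 0.22 to 0.09, SMAD7, at 57.0%, from 0.08 to 0.16, and SMAD4, at 41.1%, from −0.03 to −0.13. ID1, at 57.9%, turned from −0.06 to 0.05. Why fold changes vary with GC content was not tested.

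**Figure D3:**
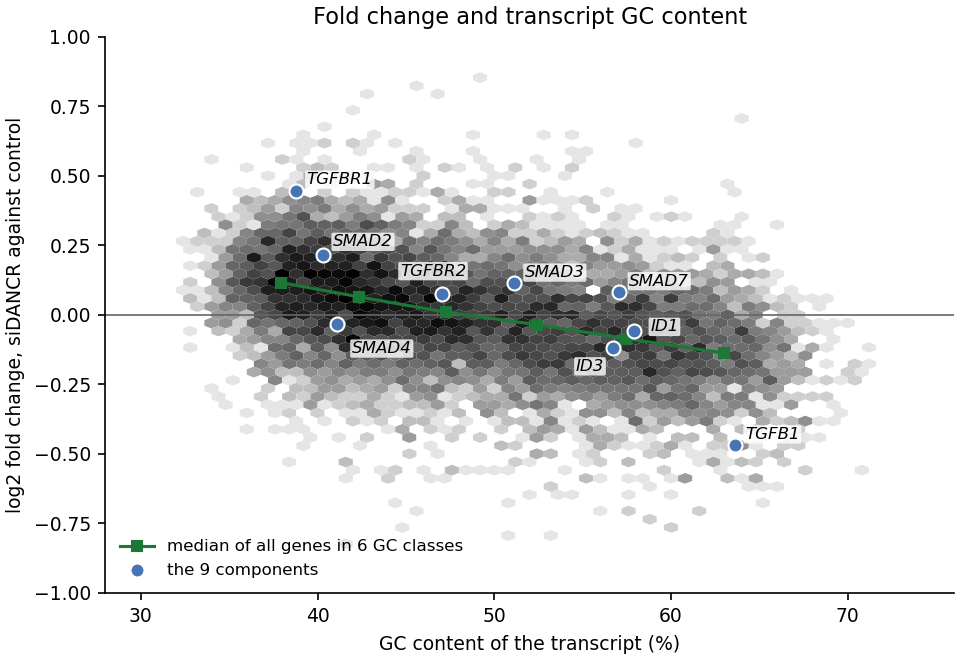
Log2 fold change of siDANCR against control (vertical axis) against transcript GC content in percent for 13029 genes (grey, darker where more genes lie), with the median in each of 6 GC classes (green squares) and the 9 components (blue points). The class medians run from 0.12 under 40% GC to −0.14 at 60% and above, TGFBR1 lies high at the left at 0.45 and TGFB1 low at the right at −0.47.

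An siRNA can also act on transcripts that pair with its seed, bases 2 to 8 of either strand. Which of the DANCR siRNAs the sequenced cells received is not in the labels, while siDANCR1 is the one named in the source data of the study. The strands of siDANCR1 and of the control siRNA are shown 5′ to 3′ from the study's list of oligonucleotides, since their seeds decide which components carry a site, with the seed in capitals.
siDANCR1: cCCUUCAGuuacaauagga
siDANCR1as: uCCUAUUGuaacugaaggg
siControl: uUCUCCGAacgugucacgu
siControlas: aCGUGACAcguucggagaa

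The complement of the siDANCR1 seed, CTGAAGG, occurred in the 3′ UTR of TGFBR1, SMAD2 and SMAD3, or 3 of the 9 measured components, and in 16.1% of the 11355 genes of the table with an annotated 3′ UTR. These shares take no account of length. The 3′ UTRs with the site have 4887, 32870 and 4633 bases. Of those without it, SMAD4 has 6575, TGFB1 729, ID3 515 and ID1 416. The site of the opposite strand, CAATAGG, occurred in SMAD4 alone among the components and in 5.56% of all genes. The control siRNA had a site, TCGGAGA, in the long 3′ UTR of SMAD2 (2.09% of all genes), and its other strand, with the site TGTCACG, had none in the components (3.04% of all genes). The sites of the components other than SMAD2 are given with 9 bases on either side (GRCh37 transcripts, GENCODE), the site in capitals and its first base counted from the start of the 3′ UTR.
TGFBR1 site at 2824: gccgtttgaCTGAAGGctgctctgg
SMAD3 site at 120: ctccctcaaCTGAAGGggtgcaccc
SMAD3 site at 2331: tgctcagacCTGAAGGctacttcta
SMAD4 site at 5102: atgctttctCAATAGGtccagagcc

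The components with the CTGAAGG site of the siDANCR1 strand had positive estimates, at 0.45 for TGFBR1, 0.22 for SMAD2 and 0.11 for SMAD3. SMAD4, with the CAATAGG site of siDANCR1as, stood at −0.03. Over all genes the median log2 fold change was 0.024 with the CTGAAGG site and 0.002 without it. For CAATAGG it was 0.014 with the site and 0.005 without. For the control siRNA site TCGGAGA, which SMAD2 also carries, it was 0.084 with the site and 0.004 without. For TGTCACG it was 0.032 with the site and 0.005 without. The part of these sites in the fold changes was not tested. By its name siDANCR1as is the antisense strand, and which strand acted in the cells was not measured. A match is only a stretch of letters, and pairing at these positions was not measured.

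In the promoters of the 10 components (RefSeq, GRCh38.p14, from 250 bases before to 50 after a gene start, 25 windows), a pair of short motifs was searched on both strands. The SMAD motif CAGACA was found in 4 of the 25 windows, in TGFB2, TGFBR1 and SMAD3, and in 16.9% of all 35116 promoter windows. The GC-rich BMP-responsive motif GGCGCC was found in 5 windows, in TGFBR1, SMAD2, SMAD3 and SMAD4, and in 19.2% of all windows. TGFB1, TGFBR2, SMAD7, ID1 and ID3 had neither motif in these windows.

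The wider pathway was read from lists of 101 genes, the 10 components included, of which 69 were in the table. Outside the components 60 genes were measured. Of these 2 were called higher, THBS1 and CCN2, 1 was called lower, CDKN1A, and 57 were not called, beside 0.409% of all genes called higher and 0.320% called lower. The median log2 fold change of the 60 was 0.04. The lists were written with called genes of these samples known, so these counts are no independent evidence of a direction or of a share above that of all genes.

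Upstream of the receptors, no ligand gene was called. Of 22 ligand genes, TGFB1 included, 8 were in the table, with 5 positive and 3 negative estimates and a median of 0.08. GDF11, a ligand related to myostatin, was at −0.35 (SE 0.15, unadjusted p = 0.0195, adjusted p = 0.494, DESeq2). BMP7, the most abundant of them per kilobase, was at 0.03 (SE 0.11) on the log2 scale, at 584 mean counts per kilobase. BMP8A at 0.35 (SE 0.30) and BMP8B at 0.16 (SE 0.14) are near-identical copies, and their counts are uncertain. BMP4, INHBA and NODAL were among the 14 ligand genes that the table did not hold.

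Genes that store or release latent TGF-beta held the pathway gene of lowest p. THBS1, a matrix protein able to release TGF-beta from its latent complex, rose by 0.84 on the log2 scale (SE 0.14, adjusted p = 2.41e-06, DESeq2), to 179% of control (148% to 216%). ITGB8, a chain of an integrin that activates latent TGF-beta, was at 0.55 (SE 0.24, adjusted p = 0.494, DESeq2), and its partner ITGAV at −0.01 (SE 0.20). FURIN, the protease that cleaves the TGF-beta precursor, was at −0.26 (SE 0.13) and the latent binding protein LTBP4 at −0.21 (SE 0.16), neither called. Of the 7 measured genes of this list 1 rose, none fell and 6 were not called, with a median of −0.01. Over all genes 0.409% were called higher and 0.320% lower. At an unadjusted p of at most 0.05 (DESeq2) 3 of the 7 passed, beside 6.92% of all genes. THBS1 and ITGB8 were higher and FURIN lower, in a list written with called genes known. With the GC content and length trends removed, 1 of the 7, THBS1, passed an unadjusted p of 0.05 (Wald test with the DESeq2 SE). Over all genes 687 of 13029 passed in that setting. ITGB8 was then at 0.43 and FURIN at −0.14. THBS1 also carries a site of the siDANCR1 strand in its 3′ UTR. So do ITGB8 at 0.55, GDF11 at −0.35, ACVR1C at −0.28 and further list genes, with estimates in both directions. The part of these sites was not tested, and that of THBS1 is shown.
THBS1 site at 1050: aagatctggCTGAAGGattattcat

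Receptor genes leaned to positive estimates without a call. Of 13 listed 12 were in the table, 9 with a positive and 3 with a negative estimate, with a median of 0.12. Over all genes 6758 of 13449 estimates were positive. At an unadjusted p of at most 0.05 (DESeq2) 3 of the 12 passed, beside 6.92% of all genes, and all 3 were higher: TGFBR1, TGFBR3 and BMPR1A. BMPR1A, a type I receptor of BMPs, had the lowest p, at 0.50 (SE 0.15, unadjusted p = 5.94e-04, adjusted p = 0.0713, DESeq2). TGFBR3, the co-receptor betaglycan, was at 0.49 (SE 0.18, adjusted p = 0.291, DESeq2) and BMPR2, the type II receptor of BMPs, at 0.43 (SE 0.26). The 12 receptor transcripts had a median GC content of 41.2%, against 47.9% over all genes. Among the 2842 genes from 40% to 45% GC, 65.2% had a positive estimate. With the GC content and length trends removed the median of the 12 receptors was 0.11 and 8 of their estimates were positive. In that setting 5 of the 12 passed an unadjusted p of 0.05 (DESeq2 SE), beside 687 of 13029 genes. Among the 5 were ENG at 0.30 and, in the lower direction, the nodal receptor ACVR1C at −0.43. BMPR1A was then at 0.40 (adjusted p = 0.368 with the DESeq2 SE). Its reads may be shared with the pseudogenes BMPR1AP1 and BMPR1AP2, both in the table at a log2 fold change of 0.23 (SE 0.39 and 0.32). The 3′ UTR of BMPR1A holds a site of the control siRNA, TGTCACG. So do those of ACVR2A at −0.19, ACVR2B at 0.21, BMP8B at 0.16 and PMEPA1 at 0.21. The part of this site was not tested.

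**Figure D4:**
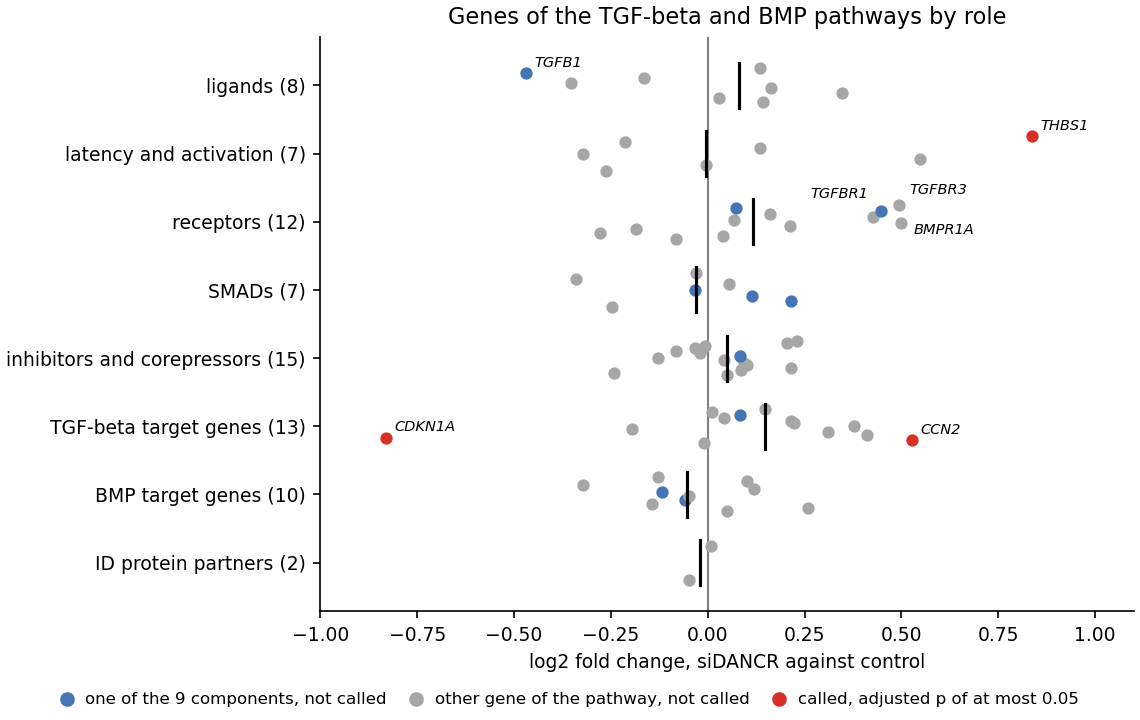
Log2 fold change of siDANCR against control (horizontal axis) for the measured genes of each list of the TGF-beta and BMP pathways, with the number measured in brackets; blue points are the 9 components (SMAD7 stands in 2 lists), grey points other genes, red points called genes and black bars list medians. Only THBS1 at 0.84, CCN2 at 0.53 and CDKN1A at −0.83 were called, and the list medians lie between −0.05 and 0.15.

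All 7 genes of the SMAD list were measured and none was called at an adjusted p of at most 0.05 or passed an unadjusted p of 0.05 (DESeq2). Outside the components, SMAD9 at −0.34 (SE 0.25) and SMAD1 at −0.25 (SE 0.24), both transducers of BMP signals, had the most negative estimates, and SMAD5 was at 0.06 (SE 0.18). Of 21 inhibitors and corepressors 15 were measured, and 0 passed either threshold (DESeq2). TWSG1, a secreted modulator of BMPs, was at 0.23 (SE 0.13), the corepressor TGIF2 at 0.21 (SE 0.13), PMEPA1, which holds SMAD2 and SMAD3 away from the receptor, at 0.21 (SE 0.21), and the activin antagonist FSTL3 at −0.24 (SE 0.23).

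Of the genes known as TGF-beta targets 13 of 19 listed were measured, 1 of them called higher and 1 lower, beside 0.729% of all genes called in either direction. CCN2, a secreted matrix protein, rose by 0.53 (SE 0.12, adjusted p = 0.00467, DESeq2), and the cyclin-dependent kinase inhibitor CDKN1A fell by 0.83 (SE 0.23, adjusted p = 0.037, DESeq2). With the same trends taken out, CDKN1A stood at −0.74 with an adjusted p of 0.118 (SE of the DESeq2 fit) and was no longer called. KLF10 at 0.38 (SE 0.17) and CDKN2B at 0.41 (SE 0.19), both growth inhibitory genes that TGF-beta induces, were not called but passed an unadjusted p of 0.05 (DESeq2). With CCN2 and CDKN1A, 4 of the 13 passed it, beside 6.92% of all genes, in a list written with called genes known. With the GC content and length trends removed, 2 of the 13 passed it (Wald test with the DESeq2 SE), CCN2 and CDKN1A. Over all genes 687 of 13029 passed in that setting. KLF10 was then at 0.33 and CDKN2B at 0.36. As deposited, the 13 had 10 positive and 3 negative estimates and a median of 0.15. TGFBI, a matrix protein gene induced by TGF-beta, was not among the genes of the table, and SMAD7 at 0.08 (SE 0.15), SKIL at 0.04 (SE 0.19) and SNAI1 at 0.01 (SE 0.20) stayed within their error.

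The BMP target genes held no called member. All 10 listed were measured, 4 with a positive and 6 with a negative estimate, with a median of −0.05, and 0 passed an unadjusted p of 0.05 (DESeq2). Beside ID1 and ID3, ID2 was at −0.05 (SE 0.15) and ID4 at 0.12 (SE 0.16), so the 4 ID genes lay between −0.12 and 0.12 on the log2 scale. The homeobox genes MSX1 at −0.32 (SE 0.25) and DLX5 at 0.26 (SE 0.22), and HEY1, a transcriptional repressor, at −0.14 (SE 0.15), were not called either.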

How the data were processed

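Poly(A) libraries marked for strand were sequenced as paired ends on an Illumina HiSeq instrument. Per the submitters' processing notes the authors used Trim Galore 0.4.4, Bowtie 1.1.2 with hg19 (GRCh37) and DESeq2. The sources used here do not give the annotation, the counting tool, its strand setting or the DESeq2 version. The labels give DMEM as the medium and the methods RPMI.

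The authors deposited 1 row per gene with the mean normalised count over the 6 libraries, a signal scaled for depth by size factors, which is not divided by length. They also deposited the log2 fold change with its SE, the Wald statistic, an unbounded score, and the p-value with its Benjamini-Hochberg adjustment. These columns are the authors' own comparison and the only measurements in the table, so they are described as such and single genes were not tested anew. The table holds 0 columns of values per library. The planned edgeR test, depth per library and the agreement of replicates could not be computed. Dividing the fold change by its SE gave back the Wald statistic, and adjusting the p-values over all 13449 genes gave back the adjusted p. The lowest mean was 23.1 normalised counts and the median SE 0.20. A smaller table of 98 genes repeats rows of the larger one and was not used.

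Identifiers without their version matched a symbol for 13161 genes. Intervals are 95% normal intervals from the SE. Implied group levels assume equal group sizes and are approximate. GENCODE v44, lifted to GRCh37, gave the positions, canonical transcripts and 3′ UTRs. GC content and length trends were removed by linear regression over 13029 genes, which left the SE as deposited. The genes named are the 10 components, DANCR, called list genes and the 4 genes of lowest p per pathway list. Cell type markers were named as the check of the cells. ITGAV, ENG, ACVR1C, BMP7, SKIL, SNAI1, SMAD5, ID2, ID4, the TGFB1 neighbours and the BMPR1A pseudogenes were named outside this rule, after their values were seen. The components and lists were chosen with earlier results of these data known. Alternatives were other thresholds, minimum levels, centring and removal of trends. Steps were tested on simulated data and run in Python 3.11.15 with pandas 2.3.3, numpy 2.4.6, scipy 1.17.1, statsmodels 0.14.6 and matplotlib 3.10.9.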

Additional observations from a re-analysis of the deposited data

How the results depend on the processing

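No paired analysis was possible because the table does not hold single libraries. TMM against DESeq2 size factors and the omission of 1 library at a time were therefore not run, and a library that decides a value could not be seen. The 98 called genes became 59 at an adjusted p of 0.01 and 150 at 0.1, by construction, and between 74 and 97 under the other 7 alternatives. Removal of the GC content trend alone was chosen after the data were seen. None of the 9 components was called in any of the 9 alternatives. The log2 fold change of TGFB1 ran from −0.47 to −0.32 (adjusted p from 0.140 to 0.859 with the DESeq2 SE) and that of TGFBR1 from 0.34 to 0.45 (0.143 to 0.685). ID1 turned to 0.051 with the GC content and length trends removed and to 0.033 with the GC content trend alone, within its SE throughout. CDKN1A was not called at 0.01, nor with those trends removed (adjusted p of 0.118 and 0.110), and BMPR1A was called at 0.1.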
